A study of Mus musculus with 6 samples.

Results

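The mammalian circadian clock is a transcriptional feedback loop that runs in nearly every cell and is set in the brain by the suprachiasmatic nucleus. CLOCK and BMAL1, the product of Arntl, bind E-box sequences and switch on the Per and Cry genes, whose proteins return to the nucleus and repress their own activators. In a second loop the nuclear receptors REV-ERBα (Nr1d1) and REV-ERBβ (Nr1d2) repress Arntl, and Dbp carries the rhythm to D-box sequences of output genes. Many of these transcripts swing with the time of day, and Per1 also responds to glucocorticoids and to neuronal activity.

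The clock genes considered here are Arntl, Clock, Per1, Per2, Per3, Cry1, Cry2, Nr1d1, Nr1d2 and Dbp. They were chosen by symbol, each read by the brightest probeset that the array annotation gives to that symbol alone. This found 9 of the 10 among 22180 genes on the array. Per2 was left out because its probeset is listed together with a second gene, and a second probeset of Cry2 was left out for the same reason. All 9 passed the filter on dim genes, which kept 16635 genes for the test.

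Whole-brain RNA was measured in 6 samples, 1 Affymetrix Mouse Gene 2.0 ST array each, to compare 3 samples of control mice with 3 of mice in which the RNA-binding protein HuR (Elavl1) could be removed from neurons. Every mouse carried Thy1Cre-ERT2-EYFP, a tamoxifen-inducible Cre with a fluorescent reporter that the Thy1 promoter drives in neurons. Control mice were HuRf/+, with 1 floxed allele, so that tamoxifen could remove 1 copy there too, and knockout mice were HuRf/f. All were of either sex, received tamoxifen at 10 and 11 weeks of age and were 91 days old when brains were taken. By design, glia, vessels and other non-neuronal cells would keep HuR in this model. HuR was not measured by cell type here. The sources used here do not give the time of day at which brains were taken. No label says that each sample is its own animal, so p-values here reflect only sample-to-sample spread, part of which may be technical.

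Levels are given as log2(intensity + 1) after quantile normalization between arrays, in the order of the arrays numbered 1, 2 and 3. Elavl1 itself did not check the labels, since its 1 probeset is not placed relative to the deleted part and non-neuronal cells would keep the gene by design. Its log2 level was 8.27, 8.01 and 8.53 in control and 8.22, 8.17 and 8.27 in knockout brain, a log2 fold change of -0.05 ± 0.15 (SE). A two-sided exact permutation test over all 20 assignments gave p = 0.7, and the smallest p this design can give is 0.1. Control 3 and knockout 3 stood apart from the remaining 4 arrays, with Xist at log2 levels of 7.69 and 7.68 against 2.52 to 2.79, as female and male mice would differ. The same arrays were higher in Cbln3, a gene of cerebellar granule cells, at 9.16 and 9.18 against 6.46 to 7.11, and in the endothelial receptor Flt1, at 6.64 and 6.63 against 4.56 to 5.01. The part of sex or of the brain regions in each extract in the values below was not tested.

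Clock proteins act on clock genes through short DNA elements, and matches to these were looked for near the starts of the genes. Windows from 250 bases before to 50 bases after each RefSeq start (mouse build GRCm38.p6) were searched on both strands for 4 elements: the E-box CACGTG, the related E'-box CACGTT, the D-box TTATGTAA and TAGGTCA, the core of the element bound by ROR and REV-ERB receptors. The E'-box reads AACGTG on its other strand. These 4 words do not overlap one another at any site found. There were 13 windows for 9 of the genes, and 6 genes held at least 1 element. The share of all genes that hold at least 1 of the 4 was not computed, so this count has no background. Distances are counted from the start of the window that holds the element. Per1 and Arntl have 2 windows each. Their elements lie in windows downstream of the first listed base of the gene, chr11:69095108 for Per1 and chr7:113178471 for Arntl. The stretches below are 30 bases long, 5′ to 3′ on the strand of the gene, with the element in capitals, and they are shown because elements of this kind are how clock proteins are known to reach their target genes.
Cry1, E-box 60 bases before the start, chr10:85185097-85185126, minus strand: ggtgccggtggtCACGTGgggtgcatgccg
Cry1, E'-box 79 bases before the start, chr10:85185116-85185145, minus strand: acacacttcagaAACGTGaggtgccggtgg
Per1, E-box 166 bases before the start, chr11:69098771-69098800, plus strand: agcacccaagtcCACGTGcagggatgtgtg
Cry2, E'-box 166 bases before the start, chr2:92434218-92434247, minus strand: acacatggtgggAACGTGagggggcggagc
Nr1d1, E'-box 28 bases before the start, chr11:98775388-98775417, minus strand: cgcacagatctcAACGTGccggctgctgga
Per3, D-box 205 bases before the start, chr4:151044852-151044881, minus strand: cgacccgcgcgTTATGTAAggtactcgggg
Per3, D-box 158 bases before the start, chr4:151044805-151044834, minus strand: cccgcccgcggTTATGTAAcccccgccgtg
Arntl, receptor element 31 bases after the start, chr7:113207530-113207559, plus strand: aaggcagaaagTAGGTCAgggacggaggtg

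The E-box word was in 2 of the 13 windows, against 7.15% of all 32851 windows of this length, and the E'-box word in 3, against 4.68%. The D-box word was in 1 window, that of Per3, which holds it at 2 positions, against 0.938% of all windows. The receptor element was in 1 of the windows of Arntl, against 2.61%. Clock, Nr1d2 and Dbp held none of these words in their windows, which says nothing of sites elsewhere. A match describes the letters and is no evidence of binding in these brains.

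None of the 9 clock genes passed the test between knockout and control brain (limma, a linear model fitted over all genes, with a threshold of 0.05 on the adjusted p). Each had a limma adjusted p of 1 over 16635 genes, of which 0% passed (0 genes), and none had an unadjusted p under 0.05, against 1.7% of all genes. The groups overlapped in every one of the 9, while they did not overlap in 5.7% of all genes. All 9 log2 fold changes lay above 0, from 0.03 for Arntl to 0.28 for Cry1, with a median of 0.08, beside 54.8% above 0 and a median of 0.01 over all genes tested. That shared direction depended on single arrays: without control 1, 4 of the 9 lay above 0 and the median was -0.03, and without knockout 3, 5 lay above 0.

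**Figure D1:**
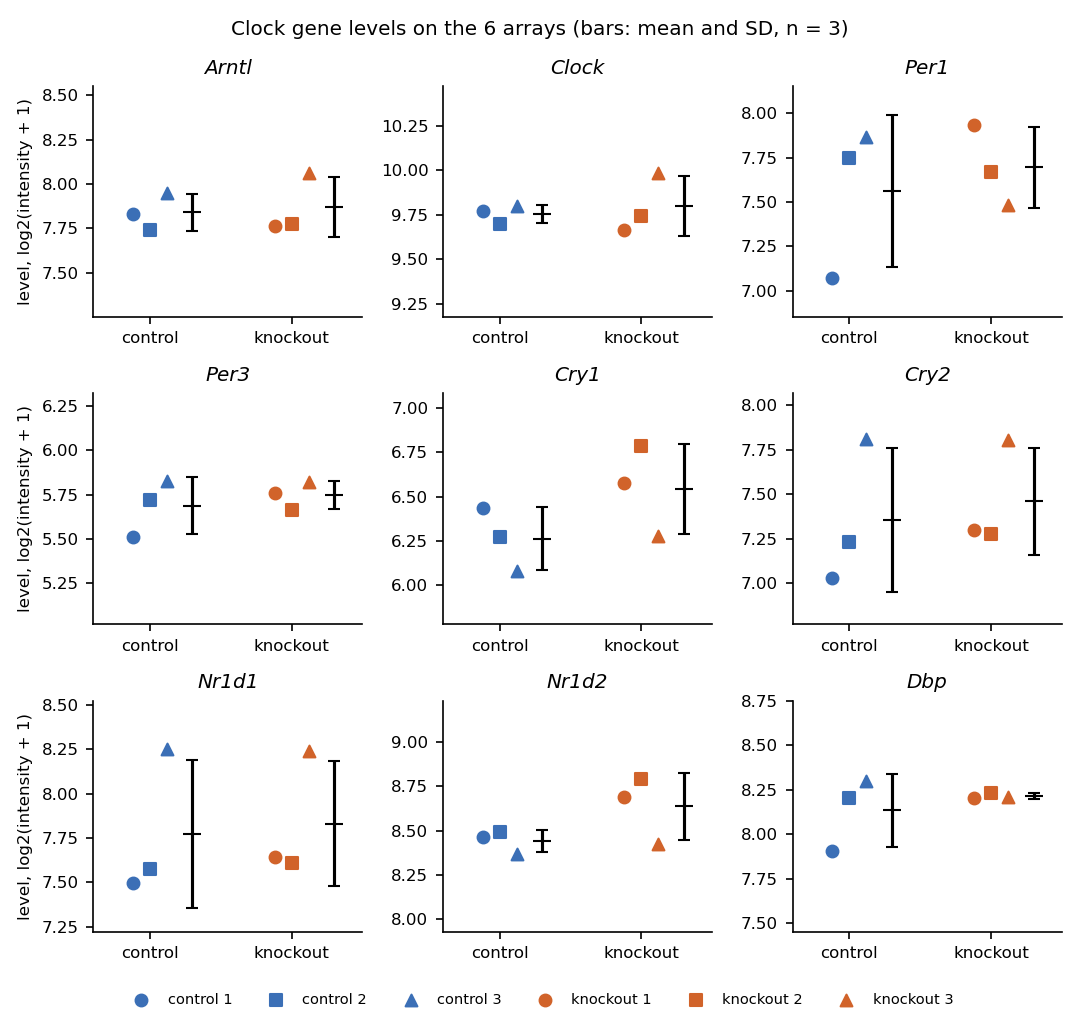
Level of each of the 9 clock genes on the 6 arrays, as log2(intensity + 1) after normalization between arrays; every vertical axis spans the same range, circles, squares and triangles are the arrays numbered 1, 2 and 3, and bars give the mean and SD (n = 3). Control 1 is lowest in Per1, Per3 and Dbp and, on this scaling, in Cry2 and Nr1d1, and the arrays numbered 3 are highest in Cry2 and Nr1d1 in both groups.

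The activators of the loop each spanned 0.32 on the log2 scale over the 6 arrays. Arntl encodes BMAL1, the partner that gives the activating complex its rhythm. Its log2 level was 7.83, 7.74 and 7.95 in control and 7.77, 7.78 and 8.06 in knockout brain. Knockout 3 was highest and the groups overlapped. The log2 fold change was 0.03 ± 0.13 (SE), with a 95% confidence interval from -0.27 to 0.32, or 0.832-fold to 1.25-fold. Clock encodes the partner of BMAL1, also a histone acetyltransferase. Its log2 level was 9.77, 9.70 and 9.80 in control and 9.66, 9.75 and 9.99 in knockout brain, again with knockout 3 highest and with overlap. The log2 fold change was 0.04 ± 0.12 (SE), with an interval from -0.24 to 0.32, or 0.849-fold to 1.25-fold. Both genes turned below 0 without knockout 3, at -0.07 and -0.05.

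Among the repressors, Cry1 had the largest difference of the 9. CRY1 is the stronger of the cryptochromes and represses CLOCK and BMAL1 directly. Its transcript had log2 levels of 6.44, 6.27 and 6.08 in control and 6.57, 6.78 and 6.28 in knockout brain. Each knockout array lay above the control array of the same number, but knockout 3 lay below control 1. The fold was 1.22 (95% confidence interval 0.936 to 1.58), a log2 fold change of 0.28 ± 0.16 (SE; limma unadjusted p = 0.122, adjusted p = 1).

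With the replicate number as a block, which compares arrays of equal number with each other, Cry1 was the 1 of 9 members with an unadjusted p under 0.05, at 0.0378 (limma adjusted p = 0.984), where 4.85% of all genes had one. The interval of its log2 fold change then ran from 0.02 to 0.54. With a term for the arrays numbered 3 its unadjusted p was 0.0245 (limma adjusted p = 0.998), beside 4.62% of all genes. Its log2 fold change stayed above 0 when any 1 array was left out, from 0.16 without knockout 2 to 0.41 without knockout 3.

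Cry2 encodes the weaker repressor of the cryptochromes, and its transcript was highest on the arrays numbered 3. Its log2 level was 7.03, 7.23 and 7.81 in control and 7.30, 7.28 and 7.81 in knockout brain. The arrays numbered 3 differed from each other by -0.0006 (knockout minus control), and the other 4 lay from 7.03 to 7.30. Knockout over control gave a log2 fold change of 0.11 ± 0.23 (SE), with an interval from -0.44 to 0.65. It was 0.33 without control 3 and -0.07 without knockout 3.

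Per1 spanned the widest range of the 9, 0.86 on the log2 scale, although Nr1d1 and Cry2 had larger SDs over the 6 arrays (0.347 and 0.324, against 0.314). PER1 is a repressor subunit whose gene reacts within the hour to light, neuronal activity and glucocorticoids. On the log2 scale its level was 7.07, 7.75 and 7.87 in control and 7.93, 7.67 and 7.48 in knockout brain. Control 1 lay below all others, and the remaining controls lay inside the range of the knockouts. Between groups the log2 fold change was 0.13 ± 0.22 (SE), with an interval from -0.39 to 0.66, or 0.763-fold to 1.57-fold. Without control 1 it was -0.11, and in the pairs of equal number it was 0.86, -0.08 and -0.39.

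Per3 encodes a PER protein that is dispensable for the core rhythm. Levels on the log2 scale were 5.51, 5.72 and 5.83 in control and 5.76, 5.66 and 5.82 in knockout brain. Control 1 was again lowest, and both arrays numbered 3 were above the other 4. This gave a log2 fold change of 0.06 ± 0.12 (SE), with an interval from -0.22 to 0.34, and it was -0.03 without control 1.

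The REV-ERB receptors of the second loop behaved unlike each other across the arrays. Nr1d1 had log2 levels of 7.49, 7.58 and 8.25 in control and 7.65, 7.61 and 8.24 in knockout brain. The arrays numbered 3 were highest in each group, with a difference of -0.01 (knockout minus control), while the other 4 lay from 7.49 to 7.65. The log2 fold change was 0.06 ± 0.25 (SE), with an interval from -0.52 to 0.64, or 0.697-fold to 1.56-fold. With the replicate number as a block the interval narrowed to -0.15 to 0.27. The value was 0.30 without control 3 and -0.15 without knockout 3.

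Nr1d2 had the second largest difference. Its log2 level was 8.46, 8.49 and 8.37 in control and 8.69, 8.79 and 8.42 in knockout brain, and here the arrays numbered 3 were the lowest of their groups. Each knockout array lay above the control of the same number, by 0.23, 0.30 and 0.06, and knockout 3 overlapped the controls. The log2 fold change was 0.19 ± 0.13 (SE), a fold of 1.15 with an interval from 0.933 to 1.40 (limma unadjusted p = 0.163, adjusted p = 1). Without knockout 3 its unadjusted p was 0.0438 and it stood at 0.30 (limma adjusted p = 0.999), where 2.79% of all genes had a p under 0.05. Cry1 and Nr1d2 were the 2 members above control in all 3 pairs, where 14.2% of all genes were.

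Dbp, an activator of D-box genes with one of the largest daily swings in the brain, had log2 levels of 7.90, 8.21 and 8.30 in control and 8.20, 8.23 and 8.21 in knockout brain. The SD was 0.206 in control and 0.0158 in knockout brain, and control 1 lay below all others. The log2 fold change was 0.08 ± 0.13 (SE), with an interval from -0.22 to 0.38, and it was -0.04 without control 1.

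**Figure D2:**
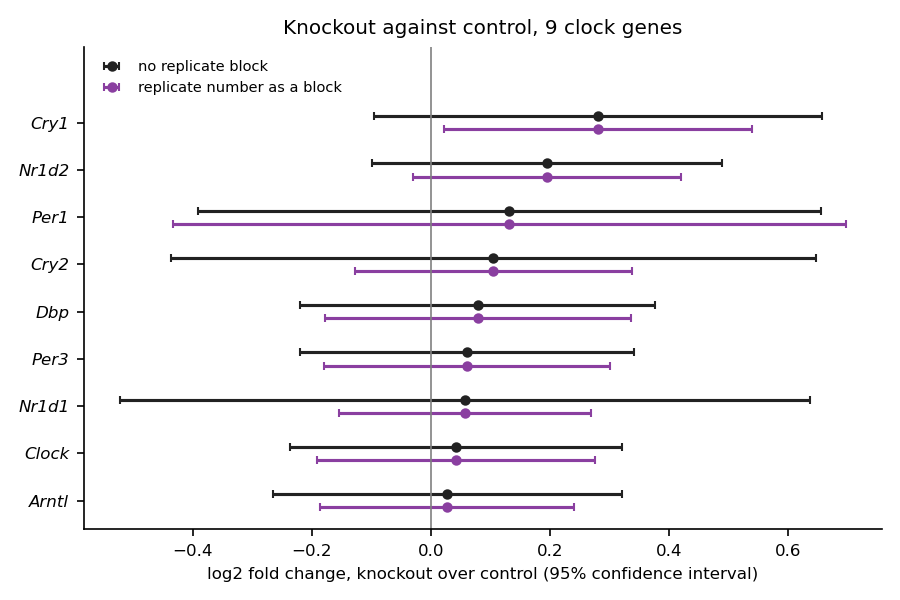
Log2 fold change of knockout over control with its 95% confidence interval for the 9 clock genes, without a block (black) and with the replicate number as a block (purple). All 9 black intervals include 0; with the block, the interval of Cry1, 0.02 to 0.54, lies above it.

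The arrays also differed in ways that did not follow genotype. Control 1 was the lowest of the 6 arrays in 5 of 9 members (Per1, Per3, Cry2, Nr1d1 and Dbp), as it was in 20.1% of all genes tested; in Nr1d1 control 2 was lowest with values as deposited, and in Nr1d1 and Cry2 with arrays centred on their median. Both arrays numbered 3 lay above the other 4 in Arntl, Clock, Per3, Cry2 and Nr1d1, as in 23.4% of all genes, and below them in Nr1d2, as in 20.6%. The median difference over the 9 members was 0.23, 0.04 and -0.0006 for arrays 1, 2 and 3, with 7, 7 and 4 members above 0.

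**Figure D3:**
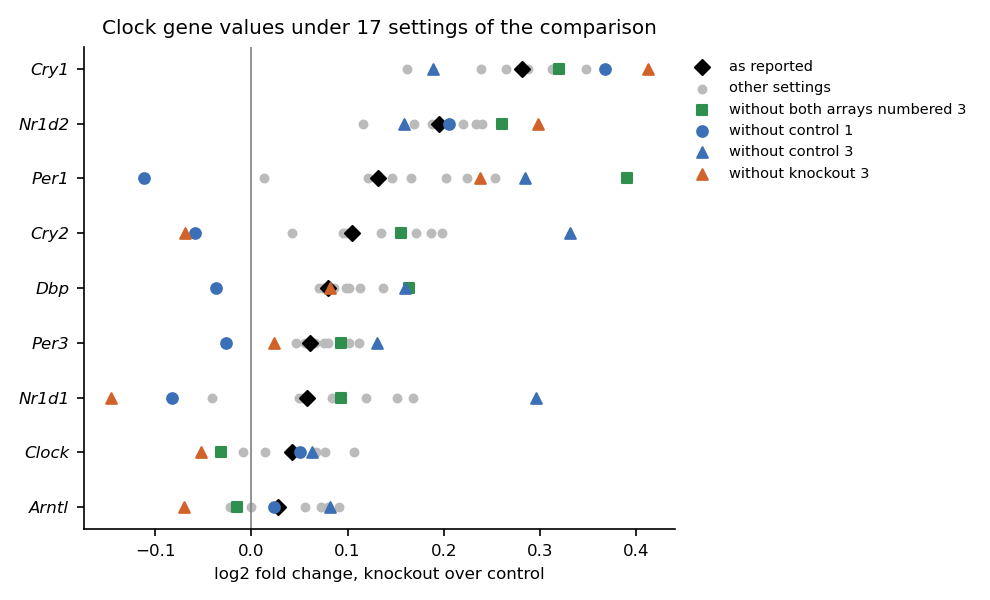
Log2 fold change of knockout over control for each of the 9 clock genes under 17 settings of the comparison: as reported, with 10 other choices of normalization, filter or model, and with each of the 6 arrays left out. Cry1 and Nr1d2 lie above 0 in all 17, and Per1, Per3, Cry2, Nr1d1 and Dbp lie below 0 without control 1.

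Other genes of the clock gave no call either. Of 34 further genes listed by role, 30 were tested. Of these, 17 lay above 0 at a median of 0.02, beside 54.8% and 0.01 over all genes. In limma 0 passed and 0 had an unadjusted p under 0.05, beside 1.7% of all genes. With the block 1 had such a p, beside 4.85%. The remaining activators were Npas2, which replaces CLOCK in forebrain neurons, and Arntl2, a BMAL1 paralogue. Npas2 had log2 levels of 7.96, 7.97 and 7.93 in control and 8.19, 8.02 and 8.03 in knockout brain. All 3 knockout arrays lay above all 3 controls, as in 3.14% of all genes, by a log2 fold change of 0.12 ± 0.10 (SE). Arntl2 stood at 0.17 ± 0.11 (SE), with overlap.

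Of 4 further repressors, 3 lay above 0, with Cipc, an inhibitor of CLOCK, at a log2 fold change of 0.05 and Ciart, a repressor of the E-box complex, at 0.04. Rora and Rorb, receptors that activate Arntl through the element that REV-ERB occupies, stood at -0.06 and -0.05. Nfil3, the repressor that competes with DBP at D-boxes, had log2 levels of 5.997, 6.28 and 6.01 in control and 5.98, 5.94 and 5.81 in knockout brain. Its knockout arrays all lay below the controls, as in 2.55% of all genes, by a log2 fold change of -0.18 ± 0.12 (SE), but the nearest arrays of the groups were only 5.98 and 5.997, and the value was -0.09 without control 2. The relatives of Dbp, Hlf and Tef, stood at -0.10 and -0.03, and a second probeset of Tef gave 0.10.

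Enzymes that set the stability of PER and CRY lay close to 0, from -0.01 to 0.07 in 7 tested genes. Among them were casein kinase Csnk1a1 at a log2 fold change of 0.02 and the CRY ubiquitin ligase Fbxl21 at 0.07. Of 7 cofactors 5 lay above 0, with the splicing and PER-complex protein Sfpq at 0.10 and the deacetylase Sirt1 at 0.06. Among 5 output genes the cell cycle kinase Wee1 stood at 0.18 ± 0.14 (SE). Gpr176, an orphan receptor of the suprachiasmatic nucleus, had the largest difference of the list, at -0.34 ± 0.17 (SE). Its log2 levels were 5.86, 6.11 and 6.26 in control and 5.80, 5.44 and 5.97 in knockout brain, with overlap, and the value was -0.19 without knockout 2. Its unadjusted p was 0.0874, and 0.0434 with the replicate number as a block (limma adjusted p = 1 and 0.984).

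**Figure D4:**
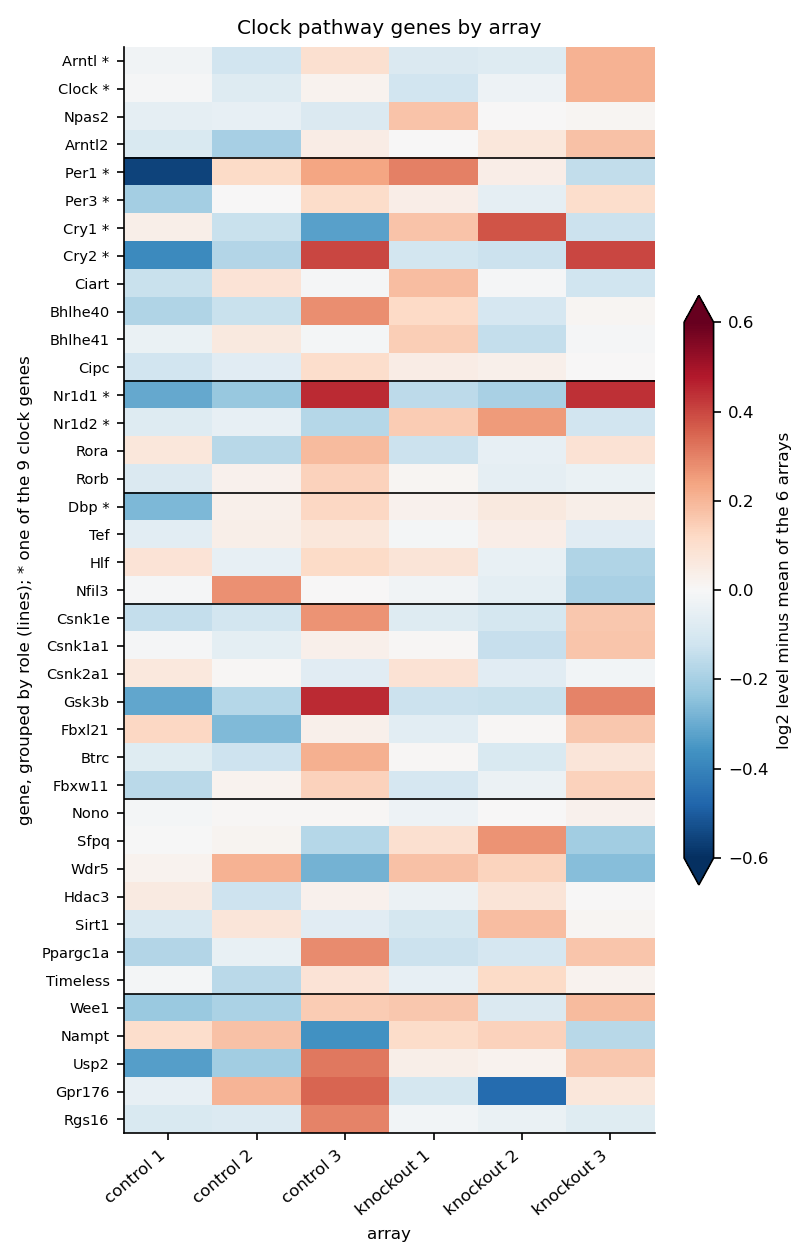
Level of 39 clock pathway genes on each array, as the log2 level minus the mean of the 6 arrays; red is above the mean, blue below, and black lines separate roles in the order activators, repressors, nuclear receptors, D-box factors, enzymes, cofactors and outputs. The columns of both arrays numbered 3 resemble each other in Cry2, Nr1d1, Gsk3b and Wdr5 whatever the group, and control 1 is lowest in Per1.

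Genes listed for the suprachiasmatic nucleus were read from whole-brain extracts, which do not show the region a transcript came from. Their values are therefore no readout of that nucleus alone. All 9 listed passed the filter, which does not show detection. Vip, Avp, Grp, Lhx1 and Vipr2 had log2 levels of 4.35 to 8.57, above the array medians of 3.85 to 3.97 before normalization, whereas Nms and Six6 lay below those medians on all arrays and Prokr2 lay around them. Of the 9, 6 had a log2 fold change above 0, beside 54.8% of all genes, and the median was 0.05. Prok2, an output signal of this nucleus, had log2 levels of 4.03, 4.13 and 3.71 in control and 3.67, 3.53 and 3.56 in knockout brain, so that control 3 and all knockout arrays were below the array medians. Its knockout arrays all lay below the controls, as in 2.55% of all genes, by a log2 fold change of -0.37 ± 0.14 (SE; limma unadjusted p = 0.0285, adjusted p = 1), where 1.7% of all genes had a p under 0.05. With a pseudocount of 16 the value was -0.18 (limma unadjusted p = 0.0596). Its receptor gene Prokr2 stood at 0.14. The summed intensity of the 9 genes was 583 on control 3 and 564 on knockout 3, against 752 to 776 on the other arrays. In whole brain, fewer cells of a type and less RNA per cell cannot be told apart.

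Inducers of Per1 were set beside it. All 8 glucocorticoid response genes lay above 0, beside 54.8% of all genes, at a median log2 fold change of 0.25. In the pair numbered 3, 1 of the 8 lay above 0. In limma 0 passed and 1 had an unadjusted p under 0.05, beside 1.7% of all genes. Their summed intensity ranged from 584 to 661 in control and from 595 to 1064 in knockout brain. The pairs numbered 1, 2 and 3 had medians of 0.41, 0.46 and -0.15, beside 0.86, -0.08 and -0.39 for Per1. Zbtb16, a glucocorticoid-induced transcription factor, stood at 0.56 ± 0.23 (SE; limma unadjusted p = 0.0424, adjusted p = 0.9998). Ddit4, an inhibitor of mTOR signalling, stood at 0.39 ± 0.22.

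Of 8 immediate early genes, which neurons switch on with activity, 1 lay above 0, beside 54.8% of all genes. With arrays centred on their median it was 2, beside 68.6%. Their median log2 fold change was -0.15. Their summed intensity ranged from 1266 to 2103 in control and from 1289 to 1682 in knockout brain. The pairs had medians of 0.24, -0.03 and -0.54. The pair numbered 3 was the lowest in some other lists, such as neuronal markers (0.14, 0.04 and -0.01) and clock outputs (0.08, 0.04 and -0.15). It was the highest in others, such as clock activators (0.01, 0.05 and 0.12) and suprachiasmatic genes (0.03, -0.07 and 0.05). Over all genes tested the medians were 0.01, 0.02 and 0.005. In limma 0 of the 8 passed and 1, Junb, had an unadjusted p under 0.05, beside 1.7% of all genes. Junb stood at a log2 fold change of -0.30 ± 0.13 (SE; limma unadjusted p = 0.0462, adjusted p = 0.9998). Its knockout arrays all lay below the controls, as in 2.55% of all genes. With arrays centred on their median its limma unadjusted p was 0.107. The nuclear receptor Nr4a1 stood at -0.37 ± 0.27, which was -0.07 without control 3. The part of either response in the Per1 values was not tested.

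Marker genes of cells and regions were read as a check on the extracts, with 0 of 43 tested genes passing in limma. Of them 1 had an unadjusted p under 0.05, beside 1.7% of all genes. The counts above 0 below stand beside 54.8% of all genes. Neuronal markers (6 of 6 above 0, summed intensity 8092 to 12360 in control and 8477 to 12120 in knockout) included Nefm at a log2 fold change of 0.22, which was 0.003 without knockout 3, and Tubb3 at 0.07. Astrocyte markers (5 of 5, 2578 to 3224 and 2786 to 3382) included Gfap at 0.15 and Aqp4 at 0.10. Oligodendrocyte markers (1 of 5 above 0, 1601 to 2111 and 1606 to 1833) included Opalin at -0.58 (limma unadjusted p = 0.0132, adjusted p = 1) and Cldn11 at -0.25. In Mog, Opalin and Cldn11, 3 of the 5, all knockout arrays lay below all controls, as in 2.55% of all genes; the part of this in the clock gene values was not tested. Genes of these 3 lists were read on all arrays, which does not show which brain regions each extract held.

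Microglial markers (3 of 5 above 0, summed intensity 540 to 708 in control and 509 to 707 in knockout) included P2ry12 at -0.21 and Cx3cr1 at -0.08. Endothelial markers (2 of 4, 139.5 to 319 and 95.6 to 344) included Slco1a4 at -0.52, from -1.11 without knockout 3 to -0.12 without knockout 1, and Flt1 at -0.14. Meningeal fibroblast markers (4 of 5, 299 to 640 and 345 to 572) included Col1a1 at 0.36, which was 0.009 without knockout 1, and Col3a1 at 0.25, with all knockout arrays above the controls as in 3.14% of all genes. Tissue attached to the brain was read through 3 more lists. Choroid plexus markers (4 of 5, 5243 to 5937 and 5330 to 6970) included Folr1 at 0.19 and Ttr at 0.16. Pineal markers, a gland with a strong clock, were 1 of 2 above 0, with Asmt at -0.17 and Tph1 at 0.03, while Aanat and Crx fell below the brightness limit. Pituitary markers (3 of 4, 47.3 to 97.4 and 58.1 to 114) included Prl at 0.74 and Pomc at 0.16. Prl had a level of 5.84 in knockout 3 and of 3.14 to 3.77 on the other arrays. Tph1 lay below the array medians of 3.85 to 3.97 before normalization on all arrays. So did Pomc on all arrays but knockout 2 and Prl on all but knockout 3. These dim values do not show detection. Cerebellar markers (1 of 2, 387 to 1185 and 367 to 1201) were Gabra6 at -0.10 and Cbln3 at 0.08. Both arrays numbered 3 had the highest sums of cerebellar, neuronal and endothelial markers. They had the lowest sums of astrocyte, microglial, meningeal fibroblast, choroid plexus and pineal markers and of the suprachiasmatic genes. Nr1d1 and Cry2 were among the 23.4% of all genes in which both arrays numbered 3 lay above the other 4. The part of any of these lists in the clock gene values was not tested.

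The genes whose profile over the 6 arrays lay nearest to Dbp were Pip5k1a, Zfp446, Ccnk, Wiz and Hsf2bp. Their root mean square distance from it, after removing each gene's mean, was 0.0223 to 0.034 on the log2 scale. All 5 share the low value in control 1, which follows from choosing them by this distance. Hsf2bp lay below the array medians before normalization on all arrays. Pip5k1a, a lipid kinase, had log2 levels of 7.32, 7.66 and 7.69 in control and 7.63, 7.62 and 7.64 in knockout brain.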

How the data were processed

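Intensities of 41340 probesets on 6 arrays were taken from the deposited table, where they are linear. Per the labels, TRIzol was used for extraction and 150 ng of RNA went into Affymetrix WT Plus labelling. The submitters' processing notes name MAS5; for background, scaling and filters the method was not given in the sources used here. Intensities became log2(intensity + 1) and, since medians of the arrays lay 0.12 apart (limit 0.1), were quantile normalized. This scale understates changes of dim genes. Of the probesets, 23521 had exactly 1 symbol, 1814 several and 16005 were not listed; they gave 22180 genes, each read by its brightest probeset, and the lowest 25% by mean level were left out.

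The test was limma 3.58.1 (lmFit and eBayes, two-sided, R 4.3.3), adjusted by Benjamini-Hochberg over 16635 genes at 0.05; the script was tested on simulated data. The number of arrays limits the precision: half-widths of the 95% intervals had a median of 0.33 (log2). Figures were drawn with matplotlib 3.10.9.

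Arrays of equal number deviated together from their groups (r = 0.31, 0.37 and 0.75, above the limit of 0.1 for pairing), so the number was also used as a block. Only number 3 was specific, since control 1 correlated with knockout 2 at 0.40, and no label states a pairing.

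The genes and lists were chosen with earlier results of these data known. The text names all members, Elavl1, from each other list the 2 genes with the smallest unadjusted p (and any clock gene under 0.05), and the 5 genes nearest to Dbp. Xist, Tef, Gsk3b, Wdr5, Mog and the further suprachiasmatic genes were added after their values were seen. Aanat and Crx were named because they fell below the brightness limit. Alternatives covered normalization, filter, pseudocount, probeset, variance model, array weights, block, a term for the arrays numbered 3 and leaving out arrays, each with quantile normalization unless normalization was the choice changed. Columns of per-sample values left unused numbered 0.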

Additional observations from a re-analysis of the deposited data

How the results depend on the processing

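The members, the other clock genes, the responses and markers and all genes gave 0 calls past the adjusted threshold in limma under every alternative run. Cry1 and Nr1d2 kept values above 0 in all of them. Genes with an unadjusted p under 0.05 numbered 282 as reported, 465 without the filter, 88 in the upper 50% of genes, 755 with array weights, 806 with the replicate block, 769 with a term for the arrays numbered 3 and 851 without both of these arrays. With array weights, the replicate block, that term, or without both arrays numbered 3, 1 member had such a p. Of these calls over all genes 55% were higher in knockout, against 68.6% after centring on array medians and 42.1% without normalization. The replicate block changed no adjusted call.

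Some values changed sign. With array weights Elavl1 stood at 0.0252, Arntl at -0.000664, Clock at -0.00841 and Cbln3 at -0.00048. Without both arrays numbered 3, Elavl1 stood at 0.0595, Arntl at -0.0151, Clock at -0.031, Rorb at 0.00614, Hlf at 0.00232, Csnk1a1 at -0.0321, Nr4a1 at 0.0307, Tph1 at -0.0729, Prl at -0.232 and Tef at 0.0282. With arrays centred on their median Elavl1 stood at 0.0143, Rora at 0.00268 and Tef at 0.0368. Tef was at 0.000962 with values as deposited, 0.1 by its other probeset and 0.037 by the mean of its probesets. Members and all further clock genes but Tef have 1 usable probeset, so that alternative could not be run for them, and quantile normalization was already the reported setting. The cause of these shifts was not tested.

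Leaving out 1 array at a time gave 165 to 576 genes with an unadjusted p under 0.05, 0 to 2 such members and 4 to 9 members above 0. The values ran from -0.179 to 0.0811 for Elavl1, -0.0702 to 0.0822 for Arntl, -0.0519 to 0.107 for Clock, -0.111 to 0.284 for Per1, -0.0267 to 0.131 for Per3, -0.0693 to 0.331 for Cry2, -0.146 to 0.296 for Nr1d1 and -0.0367 to 0.16 for Dbp. Among the other clock genes they ran from -0.0432 to 0.107 for Ciart, -0.109 to 0.000739 for Rorb, -0.161 to 0.0185 for Rora, -0.0411 to 0.151 for Fbxl21, -0.053 to 0.0986 for Csnk1a1, -0.00361 to 0.235 for Sfpq, -0.0148 to 0.131 for Sirt1 and -0.0636 to 0.00123 for Tef. Among markers they ran from -0.0273 to 0.21 for Tubb3, -0.504 to 0.00161 for P2ry12, -0.16 to 0.0225 for Cx3cr1, -0.814 to 0.479 for Flt1, -0.0714 to 0.172 for Tph1, -0.0597 to 1.25 for Prl, -0.39 to 0.163 for Gabra6 and -0.701 to 0.901 for Cbln3. Without a change of sign, they came within 0.05 of 0 for Cipc (0.00483), Gfap (0.0292), Aqp4 (0.0324), Pomc (0.0215), Hlf (-0.0318) and Asmt (-0.0443), as for Nefm and Col1a1.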
